A study of Macaca mulatta with 2 samples.

Results

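The genes described here are 9 nuclear genes whose mutations cause inherited optic neuropathy: *OPA1*, *OPA3*, *WFS1*, *MFN2*, *RTN4IP1*, *AFG3L2*, *SPG7*, *TMEM126A* and *DNM1L*. They were found by symbol, and all 9 were among the 16684 genes of the table. Their levels were measured by bulk RNA-seq of total RNA from untreated, wild-type macaque (*Macaca mulatta*) optic nerves, with 1 condition and 2 libraries named Rep1 and Rep2. The methods of the study name a 12-year-old male as the source, whereas the description deposited with the data speaks of 2 animals, so the spread between the libraries may be that between nerves of 1 animal or between animals. The strain was not given in the sources used here. The unit is TPM (transcripts per 1000000), in which the reads of a gene are divided by its length and then by the sum over the library.

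Hereditary optic neuropathies are diseases in which retinal ganglion cells and their axons, which form the optic nerve, degenerate, and most of the genes behind them act in mitochondria. OPA1 fuses the inner mitochondrial membrane, MFN2 the outer one, and DNM1L is the GTPase that constricts and divides the organelle. AFG3L2 and SPG7 (paraplegin) are subunits of the m-AAA protease, which clears and processes proteins of the inner membrane. TMEM126A helps to assemble respiratory complex I, RTN4IP1 is a mitochondrial oxidoreductase that takes part in coenzyme Q synthesis, and OPA3 is a mitochondrial membrane protein. WFS1 (wolframin), the gene of Wolfram syndrome, lies in the membrane of the endoplasmic reticulum. The cell bodies of retinal ganglion cells are in the retina, so that the nuclei of an optic nerve are mainly those of glia, vascular cells and fibroblasts.

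The libraries stood apart from each other. In TPM, each read of Rep1 counted for as much as 17.2 reads of Rep2, and 6425 genes were listed at 0 in Rep1 against 2082 in Rep2. Of the 8 oligodendrocyte markers, all 8 were at least 2-fold lower in Rep1 than in Rep2 (summed level 45999 and 212268 TPM), as were 6 of the 7 astrocyte markers (1098 and 7321 TPM), and none of these markers was listed at 0. The myelin gene *MBP* stood at 43721 and 199595 TPM and the astrocyte filament gene *GFAP* at 658 and 4331 TPM. Of the 10 photoreceptor markers, 6 were at least 2-fold higher in Rep1 (3625 and 11.0 TPM), among them *GNAT1* at 2763 TPM in Rep1 and 1.56 in Rep2, and *CRX* was listed at 0 in Rep2. Of the 9 markers of retinal ganglion cells and axons, 2 were at least 2-fold lower and 1 was at least 2-fold higher in Rep1 (413 and 1749 TPM in sum). The defining factor *POU4F2* was listed at 0 in both libraries. Other markers of this list were not low, with *RBPMS* at 155 TPM in Rep1 and 99.9 in Rep2 and *THY1* at 203 and 1535 TPM. *NEFL*, a neurofilament subunit, was at 3.63 TPM in Rep1 and 3.65 in Rep2. Among all 14693 genes with a value above 0, 51.3% were at least 2-fold lower and 14.8% at least 2-fold higher in Rep1. After median-of-ratios scaling, defined below, 7 of the 8 oligodendrocyte and 4 of the 7 astrocyte markers were lower, beside 33.8% of all genes. Then 9 of the 10 photoreceptor markers were higher, beside 23.7%, and 1 ganglion cell and axon marker was lower and 3 were higher. The part of these differences between the libraries in the values below was not tested. In bulk RNA, fewer cells of a type and less RNA per cell cannot be told apart.

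The 5′ flanks of *OPA1* and *DNM1L* are shown because these GTPases act in opposite directions on mitochondria and because *DNM1L* was higher in Rep1 under each scaling tried, whereas *OPA1* was lower there as deposited and higher after another scaling. Each run holds the 250 bases before the annotated gene start, on the gene's own strand, from the Mmul_10 genome of RefSeq. The *OPA1* window is chr2:4365187-4365436 on the minus strand, where an uncharacterized long noncoding RNA gene also lies, and the *DNM1L* window is chr11:33831288-33831537 on the plus strand, with no other annotated gene. Capitals mark matches to 5 short letter patterns, searched on both strands.
OPA1: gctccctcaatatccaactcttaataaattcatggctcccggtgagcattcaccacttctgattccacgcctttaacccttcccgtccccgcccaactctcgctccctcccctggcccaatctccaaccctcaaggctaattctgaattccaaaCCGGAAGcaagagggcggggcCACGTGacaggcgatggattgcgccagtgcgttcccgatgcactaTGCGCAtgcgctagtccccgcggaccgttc
DNM1L: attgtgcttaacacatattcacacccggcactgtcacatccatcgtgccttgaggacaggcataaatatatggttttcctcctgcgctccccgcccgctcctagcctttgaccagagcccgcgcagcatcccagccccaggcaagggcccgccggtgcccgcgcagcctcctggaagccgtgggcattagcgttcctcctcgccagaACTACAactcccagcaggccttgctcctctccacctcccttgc
The *OPA1* window held the ETS-like core CCGGAAG 96 bases before the gene start, the E-box CACGTG 75 bases before it and the NRF1-like core TGCGCA 30 bases before it. Among the 16676 windows of this length, these patterns were present in 7.47%, 6.94% and 7.19%. The *DNM1L* window held none of the 3. It held ACTACA, the core of a ZNF143-like motif, 43 bases before the gene start, as did the *MFN2* window at 15 bases, and 9.2% of all windows held it. That pattern was added after these sequences had been read. Among the other members, *TMEM126A* had the ETS-like core and *RTN4IP1* the E-box, and the YY1-like core AAGATGG, present in 3.53% of all windows, was in none of the 9. The patterns overlapped each other in neither printed window.

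The 3 GTPases of fusion and fission were among the 4 highest of the 9 genes on the mean. *MFN2* (chromosome 1, 212441848 to 212473254, minus strand, Mmul_10) was at 67.9 TPM in Rep1 and 105 in Rep2, with a mean of 86.6 ± 26.4 TPM (SD, n = 2 libraries). This mean was at percentile 87.3 among the 14693 genes with a value above 0 in Rep1, Rep2 or both. *OPA1* (chromosome 2, 4265540 to 4365186, minus strand) was at 32.6 TPM in Rep1 and 56.6 in Rep2, a mean of 44.6 ± 16.9 TPM (SD, n = 2) and percentile 78.1. *MFN2* and *OPA1* thus lay less than 2-fold apart between the libraries, both being lower in Rep1 as deposited and higher there after median-of-ratios scaling. That scaling divides each library by its median ratio to the geometric mean of both. The *MFN2* values rested on at least 39 reads in Rep1 and 1039 in Rep2, and those of *OPA1* on at least 5 and 149, where these are the smallest whole read numbers that give the ratio of the deposited values.

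*DNM1L* (chromosome 11, 33831538 to 33897686, plus strand) was at 262 TPM in Rep1 and 47.6 in Rep2. As deposited it was the only one of the 9 genes that was higher in Rep1, by 5.51 times, and its mean of 155 ± 152 TPM (SD, n = 2) at percentile 92.9 rested mainly on that library. The values came from at least 199 reads in Rep1 and at least 621 in Rep2. *DNM1L* alone made up 64.0% of the summed TPM of the 9 genes in Rep1 and 11.3% in Rep2. The sum over the 9 genes was close to equal, with 410 TPM in Rep1 and 420 in Rep2, whereas the sum of the other 8 was 148 and 372 TPM. An exon of an uncharacterized long noncoding RNA gene on the opposite strand overlaps an exon of *DNM1L* in the annotation, and the same holds for *OPA1*. The sources used here do not say whether the counting used strand, so reads of such pairs may not have been told apart.

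**Figure D1:**
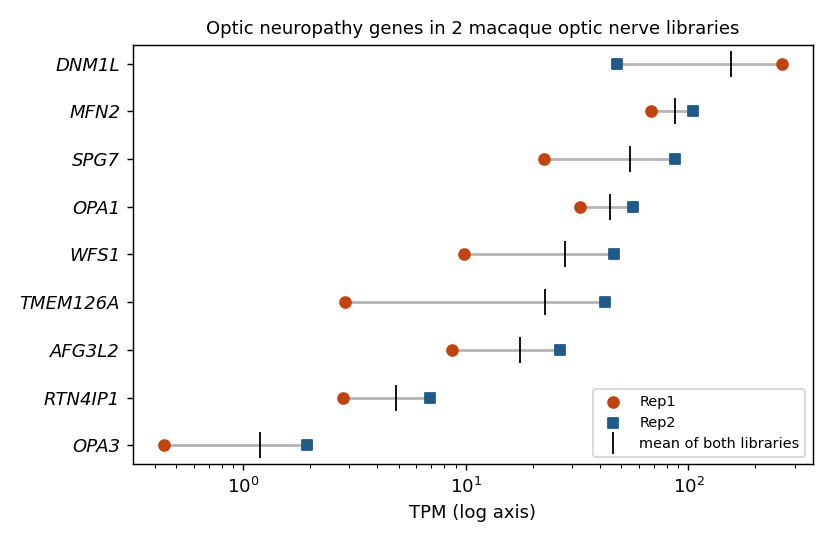
TPM of the 9 optic neuropathy genes (log axis) in Rep1 (circles) and Rep2 (squares), joined by a line, with the mean of both libraries as a vertical tick. Rep1 is to the left of Rep2 in 8 genes, of which *MFN2* and *OPA1* change sides after median-of-ratios scaling, and in *DNM1L* it is to the right, at 262 against 47.6 TPM.

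Both subunits of the m-AAA protease were detected, with *SPG7* above *AFG3L2* in each library. *SPG7* (chromosome 20, 76545630 to 76599872, plus strand) was at 22.5 TPM in Rep1 and 86.6 in Rep2, a mean of 54.6 ± 45.3 TPM (SD, n = 2) at percentile 81.2. *AFG3L2* (chromosome 18, 73003448 to 73052553, minus strand) was at 8.67 TPM in Rep1 and 26.5 in Rep2, a mean of 17.6 ± 12.6 TPM (SD, n = 2) at percentile 61.6. At least 16 and 1057 reads stood behind *SPG7* and at least 17 and 893 behind *AFG3L2*, in Rep1 and Rep2. AFG3L2 can form the protease alone or together with paraplegin, whereas paraplegin works only in the mixed complex. The ratio of *AFG3L2* to *SPG7*, which does not depend on the scaling of a library, was 0.385 in Rep1 and 0.306 in Rep2, or -1.54 ± 0.23 on the log2 scale (SD, n = 2).

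Of the genes for respiratory and other membrane functions, *TMEM126A* differed most between the libraries. *TMEM126A* (chromosome 14, 78879582 to 78888833, plus strand) was at 2.87 TPM in Rep1 and 42.3 in Rep2, a mean of 22.6 ± 27.9 TPM (SD, n = 2) at percentile 66.2. The Rep1 value rested on at least 2 reads and the Rep2 value on at least 507. Its neighbour and paralog *TMEM126B*, which also serves complex I assembly and overlaps it on the same strand without a shared exon, was listed at 0 in Rep1 and was at 24.7 TPM in Rep2. Both genes of this locus were thus low in Rep1, where 10259 of all 14693 genes were above 0. How reads shared between the paralogs were counted is not given in the sources used here.

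*RTN4IP1* and *OPA3* were the lowest of the 9 genes in both libraries. *RTN4IP1* (chromosome 4, 66578148 to 66633708, plus strand) was at 2.80 TPM in Rep1 and 6.90 in Rep2, a mean of 4.85 ± 2.90 TPM (SD, n = 2) at percentile 38.6, from at least 3 and 127 reads. It overlaps *QRSL1* on the opposite strand without a shared exon. *OPA3* (chromosome 19, 45619519 to 45651977, minus strand) was at 0.439 TPM in Rep1 and 1.94 in Rep2, a mean of 1.19 ± 1.06 TPM (SD, n = 2) at percentile 21.6. As few as 1 read in Rep1 and 76 in Rep2 would give these *OPA3* values, so the Rep1 level says little more than that the transcript was seen.

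*WFS1* (chromosome 5, 6660358 to 6697330, minus strand) was at 9.85 TPM in Rep1 and 46.2 in Rep2, a mean of 28.0 ± 25.7 TPM (SD, n = 2) at percentile 70.2. It rested on at least 20 and 1611 reads. It was the fifth of the 9 genes in each library and on the mean. The 3 genes of the whole table with values nearest to its own, by Euclidean distance in log2(TPM + 1) over the 2 libraries, were *ACBD3*, *PTAR1* and *RCAN1*, and 78 genes lay within 0.25. For *OPA1* the nearest were *VPS51*, *SNX24* and *DHPS*, and 43 genes lay within 0.25. With 2 libraries such likeness means only that the levels were alike.

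The order of the mean levels on the log2(TPM + 1) scale was *DNM1L*, *MFN2*, *SPG7*, *OPA1*, *WFS1*, *AFG3L2*, *TMEM126A*, *RTN4IP1* and *OPA3*. None of the 8 pairs of neighbours in this order differed by more than the SD of a single library, which was estimated from the 200 genes nearest in mean level. This SD includes the shift of the median gene between the libraries, which both genes of a pair largely share, so it is wide for comparing pairs. After median-of-ratios scaling 24 of the 36 pairs differed by more than 1 SD, in place of the 20 given below. The differences of neighbours ran from 0.030 SDs for *SPG7* and *OPA1* to 0.813 SDs for *RTN4IP1* and *OPA3*. Over all 36 pairs, 20 differed by more than 1 SD and 8 by more than 2 SDs, and all of these 20 pairs stood in the same order in both libraries. Of the 36 pairs, 31 had the same order in both libraries. The 5 others were *DNM1L* with *MFN2*, *SPG7* or *OPA1*, *SPG7* with *OPA1*, and *AFG3L2* with *TMEM126A*. Of the 20 pairs, 12 held *OPA3* or *RTN4IP1*. *OPA3* was more than 1 SD below each of the other genes but *RTN4IP1*, and *RTN4IP1* was more than 1 SD below the 5 highest genes. In the other 8 pairs, *DNM1L* and *MFN2* were above *WFS1*, *AFG3L2* and *TMEM126A*, and *SPG7* and *OPA1* were above *TMEM126A*, by 1.11 to 1.99 SDs. With 2 libraries an exact two-sided sign test cannot give a p below 0.5, so no test was made.

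Comparing genes by TPM also depends on the gene lengths by which the counts were divided, which the sources used here do not give. Within a library, TPM per read is inversely proportional to the length, and with a common constant 80.8% of the genes with whole read numbers implied a length that was a multiple of 0.5 bases (within 0.001 bases). A length found in this way is a least value, since the true length can be a whole multiple of it, and so can the read numbers. It was 2250 bases for *OPA3*, against 1161 bases in the longest RefSeq transcript of Mmul_10, and 689 against 750 bases for *TMEM126A*. For *OPA1* it was 757 against 6499 bases, which takes 5 times the read numbers given above, or 25 and 745, since no smaller multiple gave a length in steps of 0.5 bases. It was 750 against 4530 bases for *DNM1L* and 567 against 4669 for *MFN2*. The least lengths were 2005, 1937, 1057.5 and 701.5 bases for *WFS1*, *AFG3L2*, *RTN4IP1* and *SPG7*, and the RefSeq lengths 3675, 4505, 1693 and 3113. When the read numbers that go with these least lengths were divided by the RefSeq lengths instead, *DNM1L* was still the first gene in Rep1 and *OPA3* the last in both libraries, but in Rep2 *TMEM126A* was first, *DNM1L* sixth and *OPA1* seventh, and 9 of the 36 pairs differed by more than 1 SD. With 5 and 149 reads in place of 25 and 745, *OPA1* would have been the last gene in both libraries, so this order rests on read numbers that are themselves only least values. The ratio of the TPM of a gene between the libraries does not depend on its length, but a difference in log2(TPM + 1) does, mostly for low genes: that of *OPA3*, Rep1 minus Rep2, was -1.03 with the added 1 and -1.92 with an added 0.1.

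Between the libraries, 8 of the 9 genes were lower in Rep1 as deposited and 6 after median-of-ratios scaling, in a table where the median gene was lower in Rep1. As log2(TPM + 1), a scale that shrinks the differences of low genes, 6 genes were at least 2-fold lower in Rep1, beside 51.3% of all 14693 genes with a value above 0, and *DNM1L* was at least 2-fold higher, beside 14.8%. The median difference (Rep1 minus Rep2) was -1.06 for the 9 genes and -1.07 for all genes. *OPA3* at -1.03 and *RTN4IP1* at -1.06 lay next to that median, at percentiles 50.6 and 50.2 of all differences. *MFN2* at -0.63 and *OPA1* at -0.78 were at percentiles 59.4 and 56.1. *AFG3L2* at -1.51, *SPG7* at -1.90 and *WFS1* at -2.12 were at percentiles 40.6, 32.9 and 28.3. The outer places were those of *TMEM126A* at -3.48 (percentile 7.24) and *DNM1L* at 2.44 (percentile 93.9). The median of the 9 genes thus lay close to that of the table, with a gene of complex I assembly at one end of their range and the fission GTPase at the other. Rep1 holds 1 library and so does Rep2, and no test was possible.

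**Figure D2:**
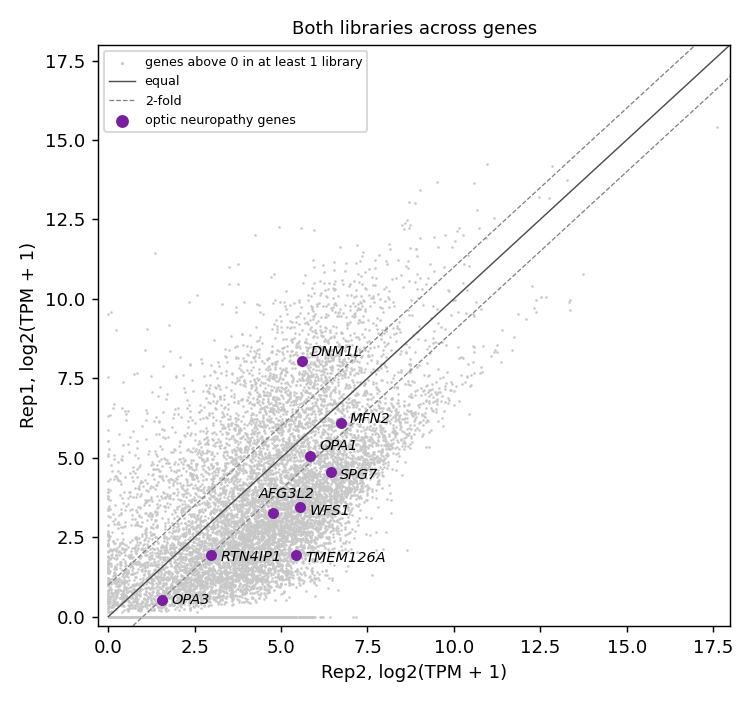
Level in Rep1 against Rep2, both as log2(TPM + 1), with each gene above 0 in at least 1 library as a grey point and the 9 optic neuropathy genes labelled. The solid line marks equal levels and the dashed lines a 2-fold difference on this scale, with *DNM1L* above the upper dashed line and 6 genes below the lower.

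Scaling by the median of ratios removed a shift of -1.19 on the log2 scale of Rep1 against Rep2, taken from the 10168 genes above 0 in both libraries. After it the median difference was still -0.38 over all 14693 genes and -0.39 over the 9 members. On that scale 1 of the 9 genes, *TMEM126A*, was at least 2-fold lower in Rep1 at -2.44, beside 33.8% of all genes. *DNM1L*, again the only 1 at least 2-fold higher, was at 3.61, beside 23.7%. *WFS1* was at -0.99, just short of 2-fold. *OPA1* at 0.39 and *MFN2* at 0.55 were on the other side of 0 than as deposited, so neither has a direction that holds under both scalings. The directions of *DNM1L* and *TMEM126A* were the same under both.

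Ratios within a library set the members against each other and against mitochondrial genes in general. *OPA1* and *MFN2* kept close proportions, with *OPA1* at 0.480 times *MFN2* in Rep1 and 0.537 times in Rep2 (log2 ratio -0.98 ± 0.11, SD, n = 2). The Rep1 value of *OPA1* may rest on as few as 5 reads, or 25 by the implied length, so this small SD says little. *MFN1*, a fusion gene that is not one of the members, was at 5.73 TPM in Rep1 and 17.6 in Rep2, so it did not keep such a proportion. The TPM ratio of *OPA1* to *DNM1L*, a gene of inner-membrane fusion to one of fission, was 0.124 in Rep1 and 1.19 in Rep2 (log2 ratio -1.38 ± 2.30, SD, n = 2). That of *MFN2* to *DNM1L* was 0.259 and 2.21 (log2 ratio -0.40 ± 2.19, SD, n = 2). In TPM *DNM1L* was thus above both *OPA1* and *MFN2* in Rep1 and below both in Rep2. These orders depend on the gene lengths used, which are not known. When the read numbers of the least implied lengths were divided by RefSeq lengths, *DNM1L* was above *OPA1* in Rep2 too, at 137 against 115 reads per kilobase. It was below *MFN2* at 223. Those read numbers are only least values, so this order is not settled either.

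The reference consisted of 11 genes for mitochondrial import, pores, chaperones and metabolism, with a median of 66.4 TPM in Rep1 and 108 in Rep2. This median was the value of a different gene in each library. Taken gene by gene, the median difference of the 11 (Rep1 minus Rep2) was -1.60 as deposited, a larger drop than that between the 2 medians. *MFN2* was at 1.02 times this median in Rep1 and 0.973 times in Rep2, and *OPA1* at 0.491 and 0.522 times. For *TMEM126A* the ratio was 0.0432 and 0.391, and for *DNM1L* 3.95 and 0.440. The remaining 5 genes were lower against this median in Rep1 than in Rep2, least so in *RTN4IP1* at 0.0422 and 0.0638 times and most in *WFS1* at 0.148 and 0.427 times. Set against the -1.60 instead, on the log2(TPM + 1) scale, only *WFS1*, *SPG7* and *TMEM126A* were lower. *RTN4IP1* at -1.06 and *AFG3L2* at -1.51 were not, nor were *OPA1* at -0.78 and *MFN2* at -0.63. These comparisons thus depend on how the reference is summarized. The reference genes were themselves uneven, 7 of 11 being at least 2-fold lower and 2 at least 2-fold higher in Rep1 as deposited, and 2 lower and 4 higher after median-of-ratios scaling. Among all genes, 51.3% were lower and 14.8% higher as deposited, and 33.8% and 23.7% after scaling. The 2 that were higher as deposited were the pore genes *VDAC1* at 343 and 153 TPM and *VDAC2* at 882 and 305 TPM, in Rep1 and Rep2.

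**Figure D3:**
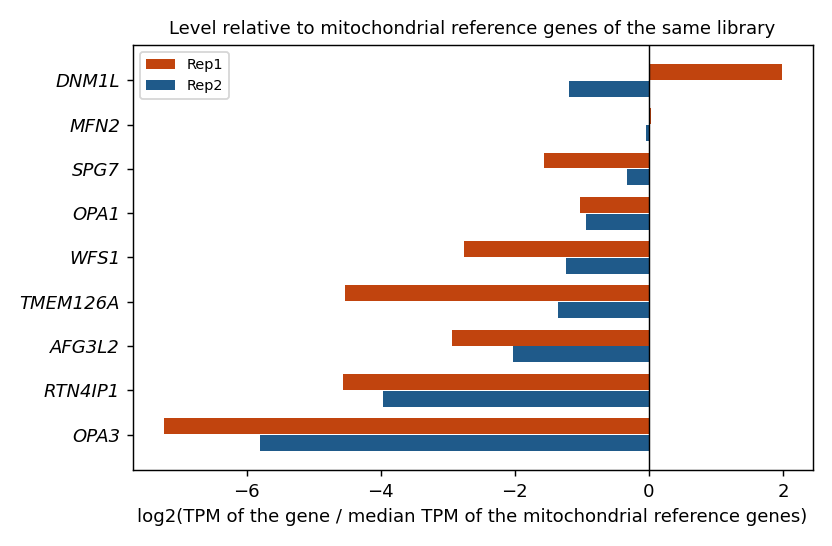
Log2 ratio of the TPM of each of the 9 genes to the median TPM of 11 mitochondrial reference genes in the same library, with 1 bar for Rep1 and 1 for Rep2. *MFN2* and *OPA1* have like bars in both libraries, whereas *DNM1L* is above 0 in Rep1, at 1.98, and below 0 in Rep2, at -1.19. The median is the value of a different reference gene in each library.

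The partners of these genes were taken from 6 lists with 71 genes in the table. All 71 were above 0 in Rep2 and 54 in Rep1. At least 2-fold lower in Rep1 were 48 of the 71, beside 51.3% of all genes, and at least 2-fold higher 3, beside 14.8%, with a median difference of -1.59. With median-of-ratios scaling 31 were lower, beside 33.8% of all genes, and 13 higher, beside 23.7%, with a median of -0.56, against -0.38 for all genes. The 3 that were higher as deposited were *CLPX*, the unfolding subunit of a matrix protease, *HSPA5*, the main chaperone of the endoplasmic reticulum, and *SYVN1*, a ubiquitin ligase of the same organelle.

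Among the fusion and fission partners, 7 of 10 were at least 2-fold lower in Rep1 and none at least 2-fold higher as deposited (median -1.38), and 3 were lower and 1 higher after median-of-ratios scaling (median -0.35). Of all genes, 51.3% were at least 2-fold lower and 14.8% at least 2-fold higher as deposited, and 33.8% and 23.7% after scaling. *FIS1*, an outer-membrane protein of fission, was at 62.1 TPM in Rep1 and 356 in Rep2. *MFF*, which recruits the DNM1L protein to mitochondria, was at 62.3 and 165 TPM. As deposited, *FIS1* and *MFF* were thus lower in Rep1, unlike *DNM1L* itself, and after that scaling they were at -1.32 and -0.21. Other genes of the list went otherwise: *MIEF1* and *MIEF2*, at -0.59 and -0.64 as deposited, were at 0.56 and 0.49 after scaling. *GDAP1* was at 0.20 as deposited and at 1.36 after scaling.

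Of the inner-membrane proteases and prohibitins, 4 of 10 were at least 2-fold lower and 1 at least 2-fold higher in Rep1 as deposited (median -0.87), which turned to 2 lower and 3 higher after that scaling (median 0.31). The shares over all genes were 51.3% lower and 14.8% higher as deposited, and 33.8% and 23.7% after scaling. *PHB*, a prohibitin, was at 93.1 TPM in Rep1 and 171 in Rep2. *CLPX* was at 217 TPM in Rep1 and 16.6 in Rep2, from at least 77 and 101 reads.

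The lists nearest to *TMEM126A* and *RTN4IP1* in function had the lowest medians. Of the complex I assembly factors, 11 of 14 were at least 2-fold lower in Rep1 and none at least 2-fold higher as deposited (median -2.78), and 9 were lower and 1 higher after scaling (median -1.75). *NDUFAF3* was at 30.0 TPM in Rep1 and 155 in Rep2, and *NDUFAF4* at 23.7 and 41.8 TPM, while 4 of the 14 were listed at 0 in Rep1. Of the genes of coenzyme Q synthesis, 8 of 11 were at least 2-fold lower in Rep1 and none at least 2-fold higher as deposited (median -3.19), and 6 were lower and 3 higher after scaling (median -2.45). Of the 11, 4 were listed at 0 in Rep1. Among all 14693 genes, 10259 were above 0 there, and 51.3% were at least 2-fold lower and 14.8% at least 2-fold higher as deposited. After scaling these shares were 33.8% and 23.7%. Genes at 0 in Rep1 entered both medians, and the -3.19 of coenzyme Q synthesis was the value of such a gene. *COQ9* at 68.5 and 55.4 TPM and *COQ10B* at 37.2 and 29.7 TPM were the highest of that list, and both were less than 2-fold higher in Rep1 as deposited and more than 2-fold higher after scaling.

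Of the endoplasmic reticulum partners of *WFS1*, 11 of 15 were at least 2-fold lower and 2 at least 2-fold higher in Rep1 as deposited (median -1.59), and 6 were lower and 3 higher after scaling (median -0.56). *HSP90B1*, a chaperone, was at 870 TPM in Rep1 and 675 in Rep2. *HSPA5* was at 673 and 217 TPM, and *SYVN1* at 75.7 and 16.6 TPM. Of 14 other genes of inherited optic atrophy, 9 were at least 2-fold lower in Rep1 and none at least 2-fold higher as deposited (median -1.28), and 5 were lower and 2 higher after scaling (median -0.26). Beside both lists, 51.3% of all genes were lower and 14.8% higher as deposited, and 33.8% and 23.7% after scaling.

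**Figure D4:**
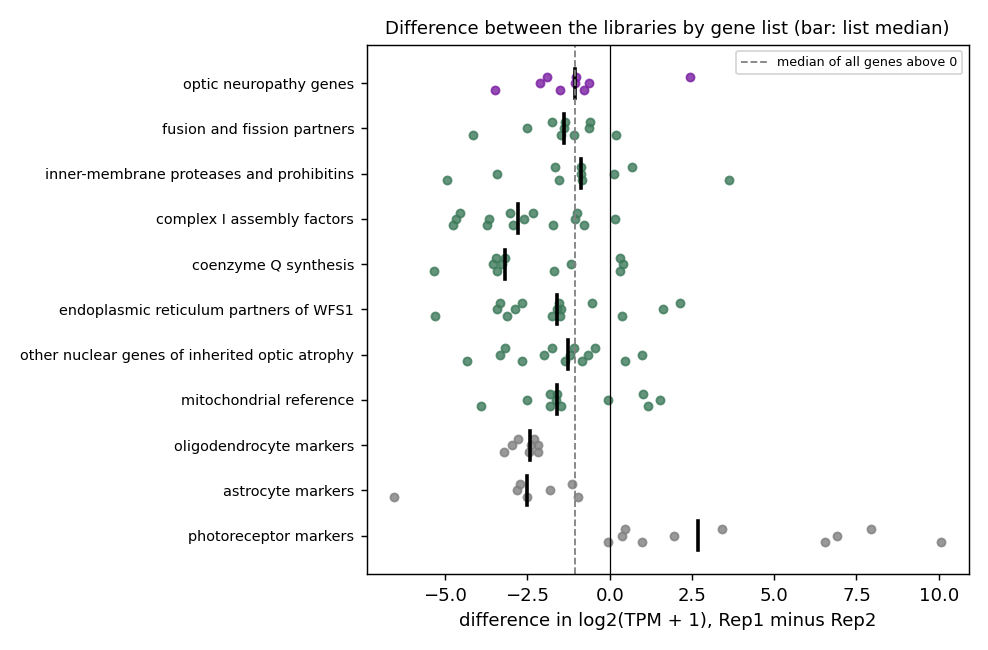
Difference in log2(TPM + 1), Rep1 minus Rep2, of each gene of 11 lists (points) with the list median (black bar) and the median of all genes above 0 in at least 1 library (dashed line, -1.07). The 9 optic neuropathy genes spread from *TMEM126A* at -3.48 to *DNM1L* at 2.44, oligodendrocyte and astrocyte markers lie to the left of 0, and 9 of the 10 photoreceptor markers lie to the right.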

How the data were processed

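Per the labels and the methods, the authors made libraries of macaque optic nerve RNA with the SMARTer v4 kit, trimmed reads with Trim Galore 0.6.6, mapped them to Mmul_10 with STAR 2.7.1a and counted them with featureCounts 1.5.3. The deposited values are TPM, normalized by the authors, with each library summing to 1000000. Column names Rep1 and Rep2 could not be tied to sample titles, so both served as replicates of the condition. Read totals are unknown, so no interval or detection limit was given.

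Values were analysed with Python 3.11.15, numpy 2.4.6 and pandas 2.3.3 and drawn with matplotlib 3.10.9. Differences were taken on log2(TPM + 1) among genes above 0 in at least 1 library, and called at 2-fold. The SD of a single library was the root mean square difference between the libraries over the 200 genes nearest in mean level, divided by the square root of 2. The general shift between the libraries was left in it. Least read numbers were the smallest whole numbers with the ratio of a gene's values, within 1e-12 and with a product up to 100000000, found for 99.9% of 10168 genes above 0 in both libraries. The read numbers, the SD and the 2-fold calls were tested on simulated data, and the implied lengths were not. The SD was set at 0.3 without a shift between the libraries and came out at 0.302, so the effect of a shift on it was not tested. Positions, lengths and sequences came from the RefSeq annotation and genome of Mmul_10, in which all 9 members matched by symbol.

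The members and lists were chosen with earlier results of these data known. Named genes were the members, 2 genes with the highest mean TPM per list, up to 3 at least 2-fold higher in Rep1, the markers *GNAT1*, *MBP*, *GFAP* and *NEFL*, and the 3 genes nearest in pattern to *OPA1* and *WFS1*, of which some are not reported here. Further genes (*TMEM126B*, *CRX*, *POU4F2*, *VDAC1*, *VDAC2*, *MFN1*, *MIEF1*, *MIEF2*, *GDAP1*) were named after their values were seen. Alternatives were scaling by the median of ratios or without the 10 genes of highest TPM, other pseudocounts, the geometric mean, other gene sets, 500 nearest genes and each library alone. RefSeq lengths were added after seeing the data.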

Additional observations from a re-analysis of the deposited data

How the results depend on the processing

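No paired analysis was possible because there is 1 condition. Over 54 results, 102 of the values from alternatives other than a single library were on the same side of the 2-fold limit or within the spread set for them, 14 moved beyond it, 9 fell short of 2-fold, 1 came to pass it and 3 changed sign. The sign changes were *OPA1* at 0.39, *MFN2* at 0.55 and the median of the inner-membrane proteases and prohibitins at 0.31, all with median-of-ratios scaling, and that list passed 2-fold, at -1.04, without the 10 genes of highest TPM. With median-of-ratios scaling the medians of the fusion and fission partners (-0.35), the partners of *WFS1* (-0.56), the other optic atrophy genes (-0.26) and the mitochondrial reference (-0.42) fell short of 2-fold, as did 5 of the 9 members. The same scaling left 1 member at least 2-fold lower in Rep1 in place of 6, and put 33.8% of all genes at least 2-fold lower and 23.7% at least 2-fold higher, in place of 51.3% and 14.8%. With RefSeq lengths and the read numbers of the least implied lengths, 9 of the 36 pairs of members differed by over 1 SD in place of 20. For levels and ratios, a value from a single library always lies within 1 SD of the mean of both. The same holds for the geometric mean of a level, which is counted among the 102, so these alternatives say nothing about stability. For the order, 15 of the 36 pairs of members differed by over 1 SD without Rep1 and 23 without Rep2, in place of 20. The low read numbers of Rep1 limit *OPA3*, *TMEM126A* and *RTN4IP1* most.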
